A study of Mus musculus with 6 samples.

Results

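Glycogen, the branched glucose polymer that cells keep as a carbon store, is built and broken down by a small set of enzymes, and 8 genes of this set were followed in MC-38 colon adenocarcinoma cells with and without a knock-down of HIF-1α. The 8 genes were selected by name for their place in the pathway, with earlier results of these data known. They were Pgm2, Ugp2, Gyg, Gys1 and Gbe1 on the synthesis side, Pygl and Pygb on the breakdown side and Ppp1r3c as a regulator. These were 8 of the 22880 genes in the table. All 8 passed the filter for low counts, which 12014 genes of the table passed. MC-38 is a mouse colon carcinoma line, here marked with green fluorescent protein. Both groups had been transduced with pLKO.1-puro, a lentiviral vector for short hairpin RNA, and neither had been passaged in vivo before. Mock cells were the control and HIF-1α-KD cells carried a stable knock-down of HIF-1α, the oxygen-regulated subunit of the transcription factor HIF. The cells were grown as orthotopic tumors in the cecum wall of C57BL/6J mice, and living cells positive for the fluorescent protein and negative for CD45 and CD31 were sorted. RNA was sequenced in 3 Mock and 3 HIF-1α-KD libraries, and neither the labels nor the methods say whether a library came from a single tumor or whether the lines were clones, so p-values measure the spread between these libraries.

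In the pathway, phosphoglucomutase interconverts glucose-6-phosphate and glucose-1-phosphate, Ugp2 activates the latter to UDP-glucose, glycogenin (Gyg) primes the particle, glycogen synthase (Gys1) lengthens the chains and the branching enzyme (Gbe1) adds branch points. Glycogen phosphorylase (Pygl, Pygb) releases glucose-1-phosphate. Ppp1r3c, also called protein targeting to glycogen, brings protein phosphatase 1 to the particle, where it activates the synthase and inactivates the phosphorylase. Hypoxic cells are known to store glycogen, and HIF-1α is a known activator of several of these genes.

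Between 19845810 and 30809379 reads were counted on genes per library. Expression is given as the normalized count, the reads of a gene divided by one factor per library, and compared with limma on the log2(normalized count + 1) scale. P-values carry the Benjamini-Hochberg adjustment over the 12014 genes. A negative log2 fold change (also called the log2 difference, HIF-1α-KD minus Mock, with its standard error, SE) stands for a lower count in HIF-1α-KD cells, and for genes with few reads its size depends on the added 1 and on the spread within a group. Hif1a, the targeted gene, had 6914, 5424 and 4945 normalized counts in Mock cells against 697.3, 3142 and 1928 after HIF-1α knock-down, with no overlap of the groups (log2 fold change -1.82 ± 0.46 SE, limma adjusted p = 0.219). The knock-down was deepest in HIF-1α-KD replicate 1. HIF-1α-KD replicate 3 stood apart by leukocyte markers, of which 8 of 10 were highest in that library, and their summed level was 393 FPKM (reads scaled to gene length and sequencing depth) there against 76.9 to 127 FPKM in the other libraries. The 8 epithelial markers were low for a carcinoma line, with a sum of 14.6 FPKM in Mock replicate 3 and 1.38 to 3.13 FPKM in the other libraries. Mock replicate 3 thus also stood apart by these markers, led by keratins (Krt8 at 190.9 normalized counts against 6.155 to 32.17). Without it no gene of the table (0) had an adjusted p under 0.05 in limma, with 1442 at an unadjusted p under 0.05. This loss was not particular to Mock replicate 3, since the count was also 0 without HIF-1α-KD replicate 2. The 6 endothelial markers summed to 5.44 to 6.44 FPKM in Mock and 3.85 to 5.40 FPKM in HIF-1α-KD libraries, without overlap. Most of this sum was Cdh5, with a mean of 5.09 FPKM in Mock and 3.05 FPKM in HIF-1α-KD libraries. Of the 3 tested, Cdh5 was lower at an unadjusted p under 0.05 in limma (log2 difference -0.84, groups apart). The other tested markers, Tek and Pecam1, had log2 differences of 1.26 and 0.26 with overlapping groups, so the lower sum lay in Cdh5. The 7 muscle markers summed to 5.18 to 11.7 FPKM, while the 5 fibroblast markers, led by Col3a1, summed to 1924 to 3623 FPKM in Mock and 4553 to 5184 FPKM in HIF-1α-KD libraries. This difference lay in Col3a1 (log2 difference 1.09, unadjusted p = 0.0026 in limma), and without it the sums overlapped, at 514 to 940 FPKM in Mock and 369 to 659 FPKM in HIF-1α-KD libraries. Thy1, also in the fibroblast list, was at 0.056 to 0.41 FPKM in all libraries. Which cells gave the transcripts of these fibroblast and endothelial markers was not tested, nor was the part of such cells in the values of the glycogen genes.

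Transcripts of Gys1 and of the phosphoglucomutase Pgm2 fell in HIF-1α-KD tumor cells, whereas those of the phosphorylase Pygb differed by less than the spread between libraries. Of the 8 glycogen genes, 2 were lower at an adjusted p-value under 0.05, where 0.383% of all genes tested were, and 0 were higher, where 0.00832% of all genes were (also 0 higher with edgeR and with DESeq2, and 0 higher at an unadjusted p-value under 0.05). The count of 2 was also reached with edgeR. DESeq2 gave 4, but these included Ppp1r3c, which passed the filter through the Mock libraries alone. The count was 0 in limma without the mean-variance trend and 0 with the replicate number as a block. It was also 0 when any library other than HIF-1α-KD replicate 1 was left out. The limma adjusted p of Gys1 was 0.0987 without the trend and 0.0649 with the block, and that of Pgm2 was 0.0987 and 0.0727. With no adjustment, 5 of the 8 were lower at p under 0.05, against 5.69% of all genes. These were Gys1, Pgm2, Gbe1, Ppp1r3c and Ugp2, and Ugp2 was above 0.05 in limma without the trend, with the block, without Mock replicate 1 and without HIF-1α-KD replicate 1, each of which left 4. In the same 5 genes the highest HIF-1α-KD value was under the lowest Mock value, a pattern found in 8.75% of all genes, and the reverse pattern, found in 10.4% of all genes, occurred in 0 of the 8. Ppp1r3c reached the minimum count in the 3 Mock libraries and in 0 HIF-1α-KD libraries, so its entry depended on the group where it was high, and without it both counts were 4 of 7. The groups overlapped for the other 3, Gyg, Pygl and Pygb. The median log2 fold change of the 8 genes was -1.18, beside 0.02 over all genes tested. Without Ppp1r3c it was -1.05, which is the value of Pygl, whose size rested on single libraries and on the test. In RNA of sorted populations, fewer cells with a transcript and less transcript per cell cannot be told apart.

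**Figure D1:**
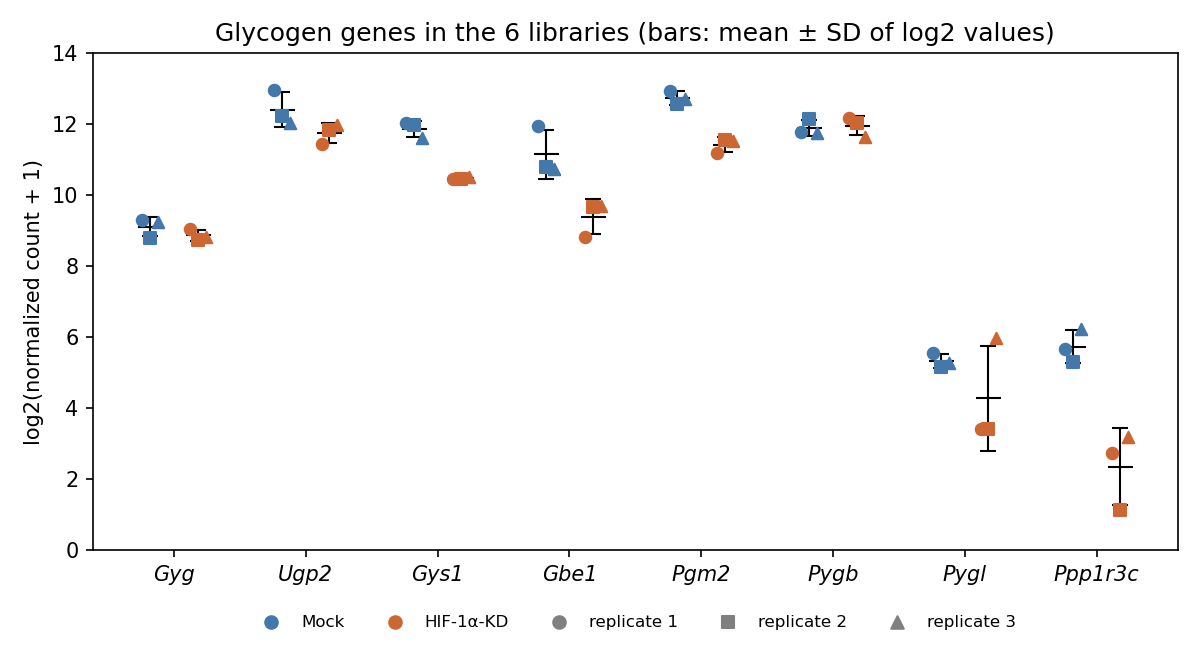
Expression of the 8 glycogen genes in the 6 libraries as log2(normalized count + 1), with Mock in blue, HIF-1α-KD in orange and a symbol for each replicate. Black bars give the mean ± SD of the 3 log2 values. Both groups are apart for Ugp2, Gys1, Gbe1, Pgm2 and Ppp1r3c and overlap for Gyg, Pygb and Pygl, and HIF-1α-KD replicate 3 (triangle) is the highest of all libraries for Pygl.

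Glycogen synthase 1 (Gys1, ENSMUSG00000003865, chromosome 7, 45434844 to 45456619, plus strand) makes the chains of the polymer. It had 4202, 3988 and 3132 normalized counts (Mock) and 1398, 1389 and 1452 (HIF-1α-KD). The lowest Mock library thus lay above all HIF-1α-KD libraries, which were nearly equal. The mean fell from 3774 ± 566 (SD, n = 3) to 1413 ± 34.1 (SD, n = 3) (log2 fold change -1.41 ± 0.15 SE, which is 2.65-fold lower, limma adjusted p = 0.0206). The call was kept without HIF-1α-KD replicate 1 (limma adjusted p = 0.0273) but not without any other library: the limma adjusted p was 0.0533, 0.0735 and 0.0911 without Mock replicates 1, 2 and 3, and 0.0793 and 0.0511 without HIF-1α-KD replicates 2 and 3. The log2 fold change was between -1.53 and -1.32 with a library left out. An opposite-strand gene, Ruvbl2, shares 310 of the 4789 exon bases of Gys1, and although the study's methods name a stranded library kit, the strand setting of the counting is not given in the sources used here. Ruvbl2 itself had a log2 difference of -0.11 ± 0.20 (SE, limma adjusted p = 0.849).

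The gene listed as Pgm2 (ENSMUSG00000025791, chromosome 4, 99929414 to 99987294, plus strand) is a phosphoglucomutase, which stands at the branch between glycogen and glycolysis. GENCODE M21 and RefSeq name this locus Pgm1, while the gene listed as Pgm1 in the table (ENSMUSG00000029171) is their Pgm2, and the names of the table are used here. Pgm2 had 7805, 5996 and 6627 normalized counts in Mock cells against 2313, 3022 and 2927 after HIF-1α knock-down. The lowest Mock library was again above the highest HIF-1α-KD library. The mean fell from 6809 ± 918 (SD, n = 3) to 2754 ± 385 (SD, n = 3) (log2 fold change -1.31 ± 0.16 SE, which is 2.47-fold lower, limma adjusted p = 0.0242). As for Gys1, only the fit without HIF-1α-KD replicate 1 kept the adjusted p under 0.05 (limma adjusted p = 0.042). The limma adjusted p was 0.0847, 0.0735 and 0.0911 without Mock replicates 1, 2 and 3, and 0.0798 and 0.0621 without HIF-1α-KD replicates 2 and 3. The opposite-strand gene Itgb3bp shares 398 of the 2921 exon bases of Pgm2, and it had a log2 difference of -0.03 ± 0.27 (SE, limma adjusted p = 0.973).

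The branching enzyme gene Gbe1 (ENSMUSG00000022707, chromosome 16, 70313949 to 70569716, plus strand) had 3954, 1759 and 1684 normalized counts (Mock) and 451.2, 805.8 and 831.7 (HIF-1α-KD). Mock replicate 1 stood well above the other Mock libraries, and HIF-1α-KD replicate 1 was the lowest of all 6. The means were 2466 ± 1290 (SD, n = 3) and 696 ± 213 (SD, n = 3). With this spread the log2 fold change of -1.76 ± 0.36 (SE) had a limma adjusted p of 0.127. Without Mock replicate 1 the log2 fold change was -1.36 (limma adjusted p = 0.265). The Wald test of DESeq2 on the recovered reads gave -1.84 (DESeq2 adjusted p = 1.6e-05), so the call of Gbe1 depended on the test.

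Ppp1r3c (ENSMUSG00000067279, chromosome 19, 36731731 to 36736653, minus strand) had the largest estimated difference of the 8 genes and few reads. Its normalized counts were 49.24, 38.28 and 73.68 in Mock against 5.63, 1.199 and 8.086 in HIF-1α-KD libraries. These values rest on 40, 40 and 61 reads in Mock and on 7, 1 and 7 reads in HIF-1α-KD cells. The lowest Mock library still had over 4 times the normalized count of the highest HIF-1α-KD library. Means were 53.7 ± 18.1 (SD, n = 3) and 4.97 ± 3.49 (SD, n = 3), a log2 fold change of -3.37. Since the gene passed the filter through the Mock libraries alone, its entry favoured a difference and its p-values are not read as support.

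UDP-glucose pyrophosphorylase, encoded by Ugp2 (ENSMUSG00000001891, chromosome 11, 21321138 to 21371201, minus strand), supplies the glucose donor of the synthase. Ugp2 had 8020, 4761 and 4158 normalized counts in Mock cells against 2767, 3628 and 4048 after HIF-1α knock-down. The groups did not overlap, but Mock replicate 3 and HIF-1α-KD replicate 3 were close to each other. The log2 difference was -0.66 ± 0.25 (SE, limma adjusted p = 0.354), and without Mock replicate 1 it was -0.37 (limma adjusted p = 0.652). Glycogenin, encoded by Gyg (ENSMUSG00000019528, chromosome 3, 20122084 to 20155317, minus strand), had 630.3, 442.1 and 601.6 normalized counts (Mock) and 525.2, 423.3 and 451.6 (HIF-1α-KD). Mock replicate 2 lay within the range of the HIF-1α-KD libraries. The log2 fold change of Gyg was -0.25 with a 95% confidence interval of -0.69 to 0.20 (limma adjusted p = 0.638), which leaves a decrease of the size seen for Gys1 outside the interval.

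**Figure D2:**
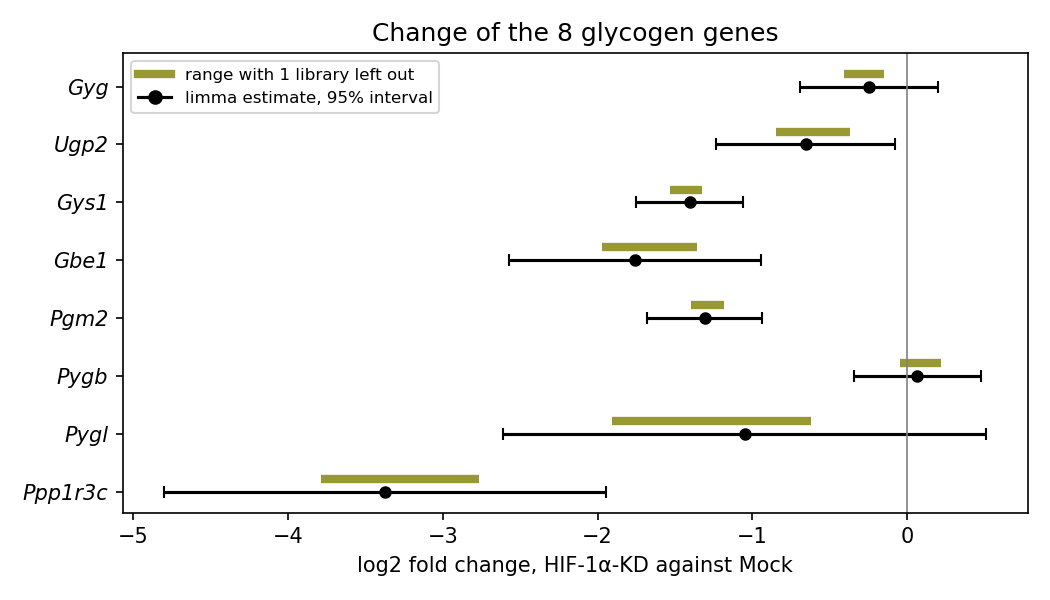
Log2 fold change of each of the 8 genes, HIF-1α-KD against Mock, with points and bars for the limma estimate and its 95% confidence interval and thick bars for the range of the estimate when each library was left out. The intervals of Gyg, Pygb and Pygl include 0, and those of the other 5 genes lie below it.

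The brain phosphorylase Pygb (ENSMUSG00000033059, chromosome 2, 150786735 to 150831758, plus strand) was the main phosphorylase transcript of these cells. It had 3489, 4495 and 3438 normalized counts in Mock cells against 4605, 4194 and 3201 after HIF-1α knock-down, and the highest and the lowest of the 6 values were both in the HIF-1α-KD group. The log2 fold change was 0.07 with a 95% confidence interval of -0.35 to 0.48 (limma adjusted p = 0.909). Its sign turned without Mock replicate 3 (-0.0022) and without HIF-1α-KD replicate 1 (-0.044).

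The liver phosphorylase Pygl (ENSMUSG00000021069, chromosome 12, 70190811 to 70231488, minus strand) was near 1 FPKM in Mock cells. It had 45.55, 34.45 and 37.45 normalized counts (Mock) and 9.652, 9.593 and 62.38 (HIF-1α-KD), so that HIF-1α-KD replicate 3 was the highest of all and the other 2 were the lowest. The log2 fold change was -1.05 (95% confidence interval -2.61 to 0.51, limma adjusted p = 0.563). Without HIF-1α-KD replicate 3 it was -1.91 ± 0.44 (SE, limma adjusted p = 0.166). It was -0.62 without HIF-1α-KD replicate 1 and also without HIF-1α-KD replicate 2, -0.56 with edgeR and -0.54 with DESeq2, so the size of the difference rested on single libraries and on the test. Pygl is known to be expressed in myeloid cells, and the 10 leukocyte markers summed to 115, 127 and 123 FPKM in Mock and to 76.9, 92.6 and 393 FPKM in HIF-1α-KD libraries, with HIF-1α-KD replicate 3 the highest here as well. Among these markers Lyz2 had 8877 normalized counts in HIF-1α-KD replicate 3 and 1715 to 2615 in the other libraries. The T cell marker Cd3e was between 0 and 2.462. Cd79a went the other way and was lowest in HIF-1α-KD replicate 3, at 119 against 159.4 to 315.8 normalized counts. The part of leukocyte RNA in the Pygl values was not tested. Of the members whose groups were apart, Gys1, Gbe1, Ugp2 and Ppp1r3c were highest of the HIF-1α-KD libraries in replicate 3, and Pgm2 was highest in replicate 2. Gys1 and Pgm2 had 1452 and 2927 normalized counts in HIF-1α-KD replicate 3 against 1389 and 3022 in HIF-1α-KD replicate 2. The part of leukocyte RNA in these values was not tested either.

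**Figure D3:**
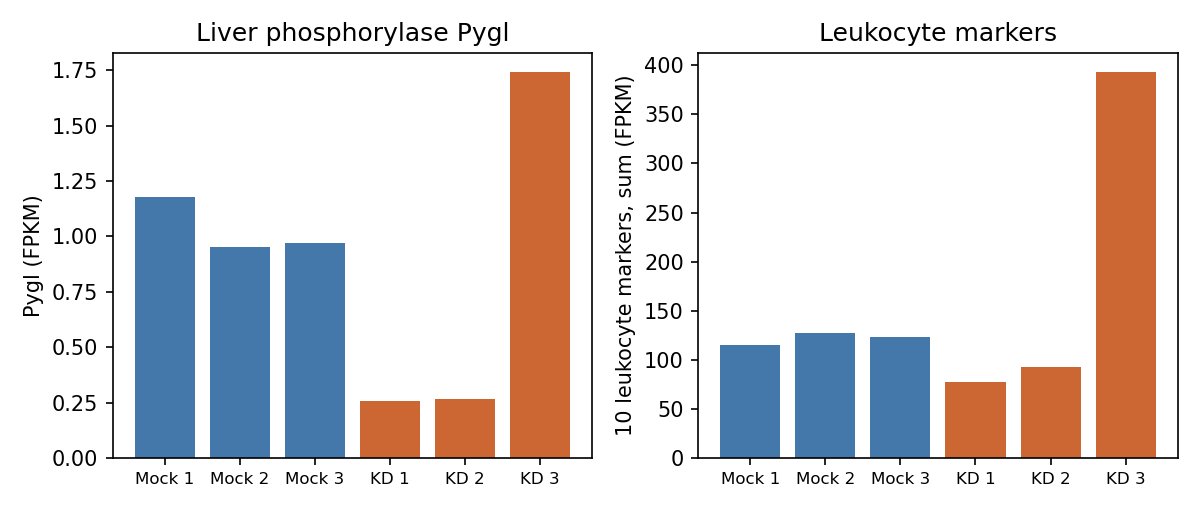
Pygl (left) and the sum of 10 leukocyte markers (right), both in FPKM, in each library, with Mock in blue and HIF-1α-KD (KD) in orange. HIF-1α-KD replicate 3 is highest in both panels, at 1.74 FPKM of Pygl and 393 FPKM of the markers.

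Levels of different genes can be compared in FPKM. In Mock cells Ugp2 was highest with 156 ± 54.4 FPKM (SD, n = 3), followed by Pygb with 114 ± 22.4 FPKM, Pgm2 with 111 ± 11.9 FPKM and Gys1 with 96.7 ± 15.7 FPKM, and the ranges of neighbours in this order overlapped. Below them came Gbe1 with 39.6 ± 19.8 FPKM, Gyg with 14.8 ± 2.20 FPKM, Pygl with 1.03 ± 0.12 FPKM and Ppp1r3c with 0.784 ± 0.247 FPKM, of which Pygl and Ppp1r3c overlapped. In HIF-1α-KD cells Pygb stood first with 124 ± 20.2 FPKM, and its range overlapped that of Ugp2 with 100.65 ± 21.0 FPKM. Pgm2 with 46.8 ± 7.54 FPKM and Gys1 with 37.6 ± 1.54 FPKM lay clearly below these, and the range of Gbe1 with 11.8 ± 3.81 FPKM overlapped that of Gyg with 12.9 ± 1.15 FPKM. Pygl (0.755 ± 0.854 FPKM) and Ppp1r3c (0.0758 ± 0.0538 FPKM) were lowest, and their ranges did not overlap. Neighbours that changed places in the means, Pygb with Ugp2 and Gbe1 with Gyg, overlapped in HIF-1α-KD cells, so a changed order was not shown. Muscle phosphorylase, Pygm, was at 0 to 0.144 FPKM in all 6 libraries.

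Ratios of 2 transcripts within a library, a set of 3 chosen after the values had been seen, compare genes within each library. Gys1 over Pygb in FPKM was 1.03, 0.762 and 0.783 in Mock against 0.261, 0.284 and 0.390 in HIF-1α-KD libraries. Synthase transcript was thus near the level of phosphorylase transcript in Mock cells and well below it in the HIF-1α-KD libraries. Pgm2 over its paralog Pgm1 was 2.16 ± 0.171 in Mock against 1.01 ± 0.0981 after knock-down (SD, n = 3 each). These 2 ratios did not overlap between the groups. No test is given, since the ratios were chosen for genes already seen to differ. Gbe1 over Gys1 overlapped between the groups, with 0.404 ± 0.168 in Mock and 0.311 ± 0.0926 in HIF-1α-KD cells (SD, n = 3 each).

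**Figure D4:**
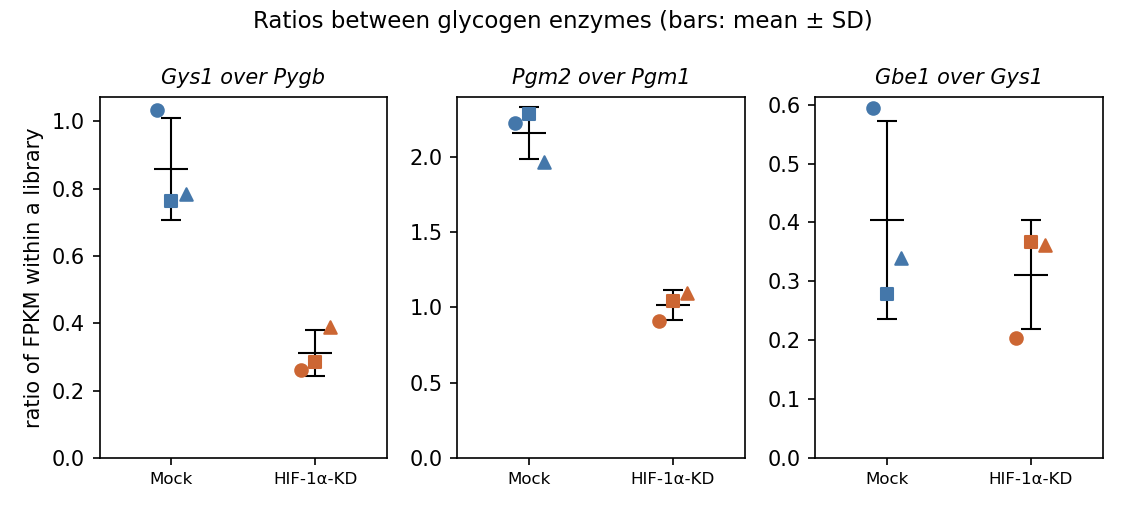
Ratios of FPKM within each library for 3 pairs of glycogen genes, with Mock in blue, HIF-1α-KD in orange, a symbol for each replicate (circle 1, square 2, triangle 3) and bars for the mean ± SD. The groups are apart for the first 2 ratios and overlap for Gbe1 over Gys1.

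HIF binds DNA at a short core, ACGTG or GCGTG, and the start regions of the 8 genes were searched for these letters on both strands. The windows, from RefSeq on GRCm38.p6, reach from 250 bases before to 50 bases after a transcription start, and all 8 genes had one. Either core was found in 43.8% of all 32851 windows of the table and at least 2 matches in 20.6%, where matches on opposite strands may overlap. Pgm2 had 2 matches, at positions -208 and -181 from the start, and Ppp1r3c had 4, of which 2 overlap on opposite strands as the palindrome CACGTG. Gys1 and Gbe1 had 0 matches in their windows. Among the genes whose groups overlapped, Gyg had 3 matches, Pygl 2 and Pygb 2. Ugp2 has a pair of windows, one with 6 matches and one with 0. The letters therefore did not separate the genes with lower transcript from the others, and a match is no evidence of binding, which was not measured. The 250 bases before the start are shown, 5′ to 3′ in the direction of transcription, for Pgm2 and Ppp1r3c as genes with matches and with groups apart, for Gys1 as the gene with the smallest p-value and no match, and for Pygb as a gene with matches and no difference. Capitals mark the matches.
Pgm2 (chr4:99929201-99929450, plus strand): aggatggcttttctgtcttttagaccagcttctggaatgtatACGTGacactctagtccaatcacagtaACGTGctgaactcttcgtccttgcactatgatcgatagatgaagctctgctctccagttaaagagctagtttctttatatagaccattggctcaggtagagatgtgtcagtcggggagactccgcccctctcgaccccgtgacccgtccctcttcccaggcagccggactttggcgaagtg
Ppp1r3c (chr19:36736605-36736854, minus strand): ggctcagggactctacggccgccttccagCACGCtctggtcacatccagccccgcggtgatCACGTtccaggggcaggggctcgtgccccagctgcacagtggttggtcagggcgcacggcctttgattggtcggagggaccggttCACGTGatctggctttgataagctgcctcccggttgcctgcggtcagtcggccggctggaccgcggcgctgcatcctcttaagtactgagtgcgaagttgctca
Gys1 (chr7:45434589-45434838, plus strand): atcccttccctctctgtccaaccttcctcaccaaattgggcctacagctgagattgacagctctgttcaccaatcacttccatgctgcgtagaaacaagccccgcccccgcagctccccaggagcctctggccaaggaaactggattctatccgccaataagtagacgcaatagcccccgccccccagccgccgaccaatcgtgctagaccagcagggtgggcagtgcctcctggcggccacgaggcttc
Pygb (chr2:150786546-150786795, plus strand): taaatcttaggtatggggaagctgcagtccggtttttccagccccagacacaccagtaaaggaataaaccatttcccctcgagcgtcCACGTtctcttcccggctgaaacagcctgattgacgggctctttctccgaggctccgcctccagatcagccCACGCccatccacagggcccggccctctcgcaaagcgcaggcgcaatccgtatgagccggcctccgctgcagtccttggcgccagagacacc

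The rest of the glycogen pathway was read from a list of 36 further genes, of which 26 passed the filter for low counts and 10 did not. None (0 of 26) had an adjusted p-value under 0.05 in limma or in edgeR, and DESeq2 called 3, Epm2a, Prkab2 and Slc37a4, all lower in HIF-1α-KD cells. Before adjustment 5 of the 26 were lower at p under 0.05 (19.2%, against 5.69% of all genes) and 0 were higher (against 7.04% of all genes). These 5 were Epm2a, Ppp1r3b, Ppp1cb, Prkab2 and Slc37a4. The median log2 fold change of the 26 genes was -0.12.

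Epm2a encodes laforin, a phosphatase that removes phosphate from glycogen and is mutated in Lafora disease. It had 215.4, 136.8 and 99.05 normalized counts in Mock cells against 18.5, 27.58 and 49.67 after HIF-1α knock-down, so the groups were apart and HIF-1α-KD replicate 1 was the lowest. Its log2 difference was -2.24 ± 0.44 (SE, limma adjusted p = 0.112), the lowest in the list.

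Of the 7 tested subunits of protein phosphatase 1 in the list, the catalytic and the glycogen-targeting ones, 2 had an unadjusted p-value under 0.05, both lower (5.69% of all genes were lower and 7.04% higher at this level). Ppp1r3b, the targeting subunit known from liver, had 128, 72.73 and 136.5 normalized counts in Mock cells against 49.06, 50.36 and 80.86 after HIF-1α knock-down, and its groups overlapped (log2 fold change -0.88, limma adjusted p = 0.373). Ppp1cb, a catalytic subunit, had a log2 fold change of -0.50 (limma adjusted p = 0.384), with 13770 normalized counts in Mock replicate 1 and 7895 and 8266 in the other Mock libraries. The targeting subunits Ppp1r3a and Ppp1r3g were at 0 in all libraries. None (0) of the 4 tested subunits of phosphorylase kinase, the enzyme that switches phosphorylase on, had an unadjusted p-value under 0.05 in limma, and their log2 fold changes were between -0.32 for Phka2 and 0.24 for Phka1.

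Among the 8 tested kinase genes that act on the synthase, the glycogen synthase kinases and the subunits of AMP-activated kinase, 1 was lower at an unadjusted p-value under 0.05 (12.5%, beside 5.69% of all genes), from which nothing is read about the kinases. This was Prkab2, a subunit of AMP-activated kinase that carries a glycogen-binding domain. Prkab2 had 758.3, 680.4 and 664.4 normalized counts (Mock) and 399.7, 455.6 and 419.3 (HIF-1α-KD), with little spread within the groups (log2 fold change -0.72 ± 0.16 SE, limma adjusted p = 0.165). Slc37a4, which carries glucose-6-phosphate into the endoplasmic reticulum, had 1089, 960.8 and 939.8 normalized counts in Mock cells against 508.3, 673.9 and 690.8 after HIF-1α knock-down (log2 fold change -0.68 ± 0.18 SE, limma adjusted p = 0.224). The glucose-6-phosphatase gene G6pc had a normalized count of 1.199 in HIF-1α-KD replicate 2 and 0 in the other libraries, while G6pc3, the widely expressed form, had 1458, 1582 and 1639 in Mock and 1440, 1573 and 1351 after knock-down, with overlapping groups (log2 difference -0.10, limma adjusted p = 0.8). Stbd1, which links glycogen to autophagy, and Gaa, the lysosomal enzyme that digests it, had log2 fold changes of -0.43 and 0.13 with overlapping groups. The genes Krt8, Cdh5, Tek, Pecam1, Thy1, Cd79a, Cd3e, Pgm1, Ruvbl2, Itgb3bp, Ppp1r3a, Ppp1r3g, Phka1, Phka2, G6pc, G6pc3, Stbd1 and Gaa are named here after their values had been seen.

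**Figure D5:**
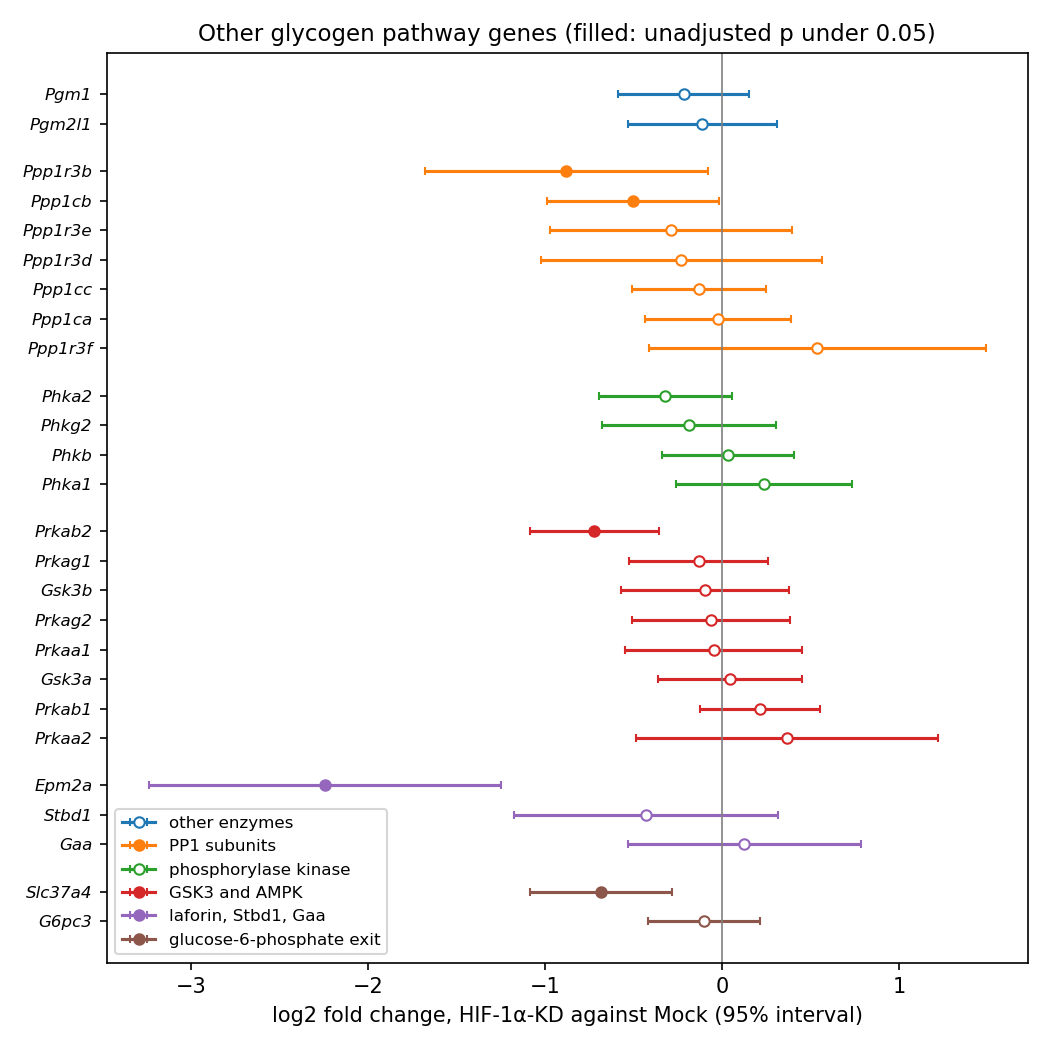
Log2 fold change, HIF-1α-KD against Mock, with its 95% confidence interval for the 26 tested genes of the wider glycogen pathway, coloured by group of function, with filled points for an unadjusted p-value under 0.05. The 5 filled points, with Epm2a at -2.24 farthest out, all lie below 0.

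The 5 genes whose log2 counts ran most like those of Gys1 over the 6 libraries were Hadh (Pearson r = 0.992), Stk24 (r = 0.991), Ndufa4l2 (r = 0.988), Klf11 (r = 0.986) and Mgarp (r = 0.985). Gys1 served as the reference because it had the smallest p-value of the 8 glycogen genes. The 6 points share the division into 2 groups, so r is a description only. Ndufa4l2, which encodes a mitochondrial protein known to be induced by HIF-1α, had a log2 difference of -2.26 ± 0.23 (SE, limma adjusted p = 0.0205). Mgarp, which also encodes a mitochondrial protein, had one of -1.41 ± 0.21 (SE, limma adjusted p = 0.0327). The other 3 had limma adjusted p-values between 0.0684 for Klf11 and 0.24 for Stk24.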

How the data were processed

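Sorted MC-38 tumor cells gave 3 Mock and 3 HIF-1α-KD RNA libraries. Reads were trimmed and mapped with STAR by the authors, who counted those on each gene with featureCounts, and the submitters' processing notes name GRCm38 and edgeR, while the study's methods name a human build and DESeq2. The mouse gene identifiers were placed on GRCm38. The deposited normalized count is a signal, the gene's reads divided by one factor per library by the authors. The deposited FPKM were computed by the authors with scaling to gene length and sequencing depth. The authors' deposited fold changes and p-values were not used. Reads were recovered by dividing out the factor, and 100% of values up to 300 reads were whole (tolerance 0.1).

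Genes were filtered with filterByExpr of edgeR 4.0.16 (minimum count 10) and tested, two-sided, with limma 3.58.1 (mean-variance trend, pseudocount 1, adjusted p under 0.05) in R 4.3.3. limma was used because the deposited values are normalized. The edgeR test and DESeq2 1.42.0 on recovered reads were alternatives, with other scalings, filters and pseudocounts, a replicate block and leaving out each library. The tests were checked on simulated data. The members and lists were chosen with earlier results of these data known. Named genes were the 8 members, Hif1a, list genes at an unadjusted p under 0.05, Pygm, markers at 0 or with the highest level of their list, and the 5 genes most like the member with the smallest p. Positions come from GENCODE M21. A gene of the wider list is not reported here.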

Additional observations from a re-analysis of the deposited data

How the results depend on the processing

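Of the 8 glycogen genes, 7 kept their direction under all alternatives that could be computed, and the exception was Pygb (-0.044 to 0.22 with a library left out, -0.0022 without Mock replicate 3). Ppp1r3c and Pygl have no value with a minimum mean normalized count of 50. Over all genes, 46 lower and 1 higher became 187 and 96 with DESeq2, 47 and 0 with edgeR, 1 and 0 in limma without trend (1397 at an unadjusted p under 0.05), 0 and 0 with the replicate block (1324), and 0 to 32 and 0 to 6 with a library left out; both were 0 without Mock replicate 3 (1442) and without HIF-1α-KD replicate 2 (1069). Of the glycogen genes, the 2 lower became 4 with DESeq2, 0 without trend, 0 with the replicate block and 0 to 2 with a library left out. Without trend and with the block, the log2 fold changes of -1.41 for Gys1 and -1.31 for Pgm2 did not move, but the limma adjusted p was 0.0987 for each without trend and 0.0649 and 0.0727 with the block. With a library left out they were -1.53 to -1.32 and -1.39 to -1.19. DESeq2 added Gbe1 (-1.84) and Ppp1r3c (-3.43), which a pseudocount of 10 also called (-2.08) but edgeR did not. Ppp1r3c passed the filter through the Mock libraries alone, so these calls of Ppp1r3c are not read as support. DESeq2 also called 3 genes of the wider list. In that list the 5 lower at an unadjusted p under 0.05 became 3 to 6 with a library left out (3 without Mock replicate 1 and without HIF-1α-KD replicate 2). Deviations of same-numbered libraries from their group means correlated at -0.14, -0.12 and 0.02, so no sign of pairing by replicate number was seen. With so few libraries this cannot exclude a pairing. Reads limit Ppp1r3c and Pygl, with 1 to 61 per library.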
